A study of Mus musculus with 10 samples.

Results

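The core circadian clock genes were examined in cardiac tissue of male mice, HIPK2 knockout against wild type as labelled. The set comprised the activators Arntl (also called Bmal1), Clock and Npas2, the period genes Per1, Per2 and Per3, the cryptochromes Cry1 and Cry2, and the REV-ERB genes Nr1d1 and Nr1d2. All probes carrying one of these 10 gene names were taken, which gave 24 of the 56605 probes on the array that are not controls. Of these, 20 probes passed the filter on dim signal, and they measured 9 of the 10 genes.

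RNA from cardiac tissue of 5 knockout and 5 wild-type samples was hybridised, one sample to an array, to 1-colour Agilent arrays. HIPK2 is a nuclear kinase that phosphorylates transcription regulators. Per the series description, the knockout allele is a CRISPR frameshift deletion in the second exon of Hipk2 on the C57BL/6 background, made by embryo injection and kept as a breeding colony, and no cell type-specific driver is named. The labels give no genotype detail for wild type beyond its name, no age, and no part of the heart. All mice were kept on a cycle of 12 h light and 12 h dark, and the labels do not give the time of day at which tissue was taken. The labels do not say outright that the replicates of a genotype came from separate mice, so the p-values below measure the spread between these samples.

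The mammalian clock is a transcription loop. ARNTL (BMAL1) pairs with CLOCK, or with its relative NPAS2, binds E-box sequences and switches on the Per, Cry and Nr1d genes. PER and CRY proteins return to the nucleus and block that pair, while REV-ERB proteins bind ROR response elements and repress Arntl. In mouse heart, as in other peripheral tissues, these transcripts rise and fall over the day, with Arntl in roughly opposite phase to Per and Nr1d transcripts, so a single collection time samples each gene at one point of its cycle.

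Arntl had the largest difference between genotypes among the 9 clock genes tested, so the 3 probes that measured it are shown. All lie on the forward strand of chromosome 7 in mouse build mm9, and no exon annotation of mm9 was used. Probe 1, the brightest, lies at chr7:120456978-120457037. The 60 bases of probe 2 are spread over 1684 bases, chr7:120435023-120436706, as for a probe that crosses a splice junction. Probe 3 lies at chr7:120439030-120439089.
Arntl probe 1: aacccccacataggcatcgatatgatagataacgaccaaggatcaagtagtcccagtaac
Arntl probe 2: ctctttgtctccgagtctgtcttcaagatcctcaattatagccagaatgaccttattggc
Arntl probe 3: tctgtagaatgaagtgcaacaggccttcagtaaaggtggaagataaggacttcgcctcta

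The RefSeq promoter windows of build GRCm38.p6, from 250 bases before to 50 bases after a transcript start, were searched on both strands for an E-box (CACGTG, the site of ARNTL and CLOCK), a ROR response element core (TAGGTNA, the site of REV-ERB and ROR factors) and a D-box (TTATGNAA, the site of DBP, TEF and HLF). The table held windows for 9 of the 10 genes, 13 windows in all, and none for Per2. The windows below are shown because they hold 2 matches each, and capitals mark the matches. The Arntl window, chr7:113207261-113207560 on the forward strand, holds TAGGTTA at position -6 and TAGGTCA at position 30, counting from the start base. The Per1 window, chr11:69098699-69098998 on the forward strand, holds CACGTG at -166 and TTATGCAA at -24. The Per3 window, chr4:151044616-151044915 on the reverse strand, holds TTATGTAA at -205 and again at -158.
Arntl promoter: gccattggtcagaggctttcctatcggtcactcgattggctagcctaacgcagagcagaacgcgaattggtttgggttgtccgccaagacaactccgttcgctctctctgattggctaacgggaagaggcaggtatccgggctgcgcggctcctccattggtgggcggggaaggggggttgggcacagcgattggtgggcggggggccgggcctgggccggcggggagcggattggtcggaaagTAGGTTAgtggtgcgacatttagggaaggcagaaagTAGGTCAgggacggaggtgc
Per1 promoter: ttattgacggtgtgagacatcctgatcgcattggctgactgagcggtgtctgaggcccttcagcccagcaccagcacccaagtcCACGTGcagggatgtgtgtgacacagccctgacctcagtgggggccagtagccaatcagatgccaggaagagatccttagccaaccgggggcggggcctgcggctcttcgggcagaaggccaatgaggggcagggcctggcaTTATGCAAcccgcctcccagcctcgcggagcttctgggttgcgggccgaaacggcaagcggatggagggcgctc
Per3 promoter: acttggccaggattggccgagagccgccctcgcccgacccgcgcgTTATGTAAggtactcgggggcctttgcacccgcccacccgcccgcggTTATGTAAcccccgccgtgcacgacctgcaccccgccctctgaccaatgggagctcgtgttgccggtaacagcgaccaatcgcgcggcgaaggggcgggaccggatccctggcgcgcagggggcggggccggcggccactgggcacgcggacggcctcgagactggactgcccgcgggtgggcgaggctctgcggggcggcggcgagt

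Among all 32851 promoter windows in the table, 7.15% held the E-box, 8.29% the ROR response element core and 3.38% the D-box. Cry1 also held an E-box, at position -60, and a second Arntl window held the TAGGTTA alone. No match was found in another Per1 window, chr11:69099902-69100201, or in the windows of Clock, Npas2, Cry2, Nr1d1 and Nr1d2. The matches describe letters in these short windows only.

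The activators Arntl and Clock fell in knockout hearts, and no repressor passed the test. Levels are given as the log2 of the processed signal over the 75th percentile of the array, so that 0 is the signal of a probe at that percentile, and a probe's level cannot be set against another probe's. Differences are knockout minus wild type from limma, and their p-values carry a Benjamini-Hochberg adjustment over all 20607 genes, at a threshold of 0.05. Across all genes 4.94% passed, 1.97% upward and 2.97% downward, and the median difference was 0.03. Of the 9 clock genes tested, 2 fell and none rose, and their median difference was 0.12.

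**Figure D1:**
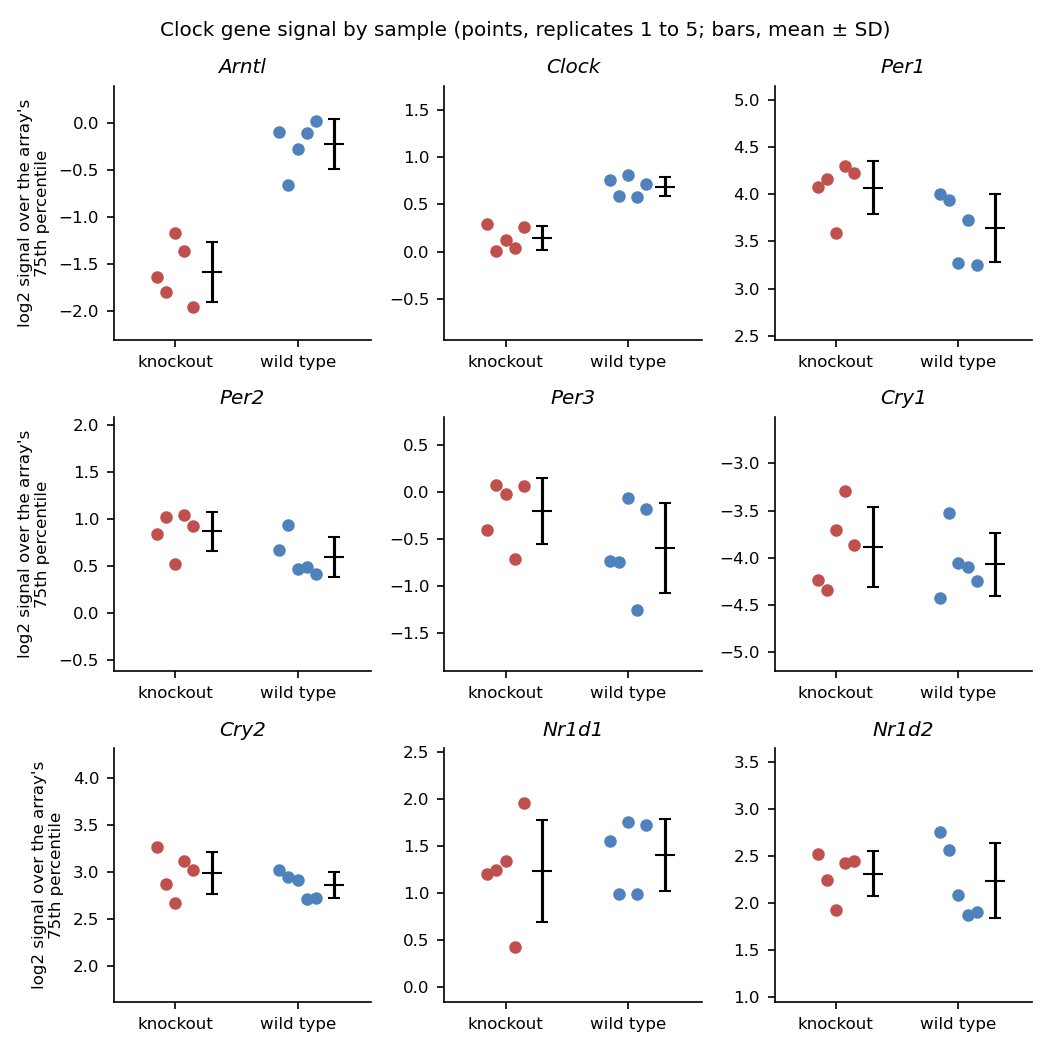
Log2 signal over the array's 75th percentile (vertical axis) of the 9 clock genes that could be tested, in knockout (left) and wild-type (right) hearts. Points are samples in the order of replicates 1 to 5, bars give mean ± SD (n = 5), and every panel spans the same range of log2 units. Arntl and Clock are the genes whose knockout and wild-type points do not overlap.

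Arntl encodes BMAL1, the shared partner of CLOCK and NPAS2. Its brightest probe read -1.63, -1.80, -1.16, -1.36 and -1.96 in knockout replicates 1 to 5, and -0.10, -0.66, -0.28, -0.10 and 0.02 in wild-type replicates 1 to 5. The groups did not overlap: the highest knockout sample, replicate 3, lay below the lowest wild-type sample, replicate 2. Arntl averaged -1.58 ± 0.32 in knockout hearts and -0.22 ± 0.27 in wild-type hearts (SD, n = 5 each). Arntl fell, with a difference of -1.36 ± 0.17 (SE, 95% interval of the difference -1.74 to -0.98, limma adjusted p = 0.00658), which is 2.56-fold lower in knockout. It ranked 25 of the 20607 genes by p-value. In bulk tissue, fewer cells that express a gene and less RNA per cell cannot be told apart.

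The other Arntl probes also fell. Probe 2 read -4.76, -5.86, -4.04, -4.54 and -4.97 in knockout, against -3.26, -3.70, -3.60, -3.26 and -2.87 in wild type. Probe 3 read -4.95, -5.71, -4.60, -5.78 and -4.46 in knockout, against -3.33, -3.68, -3.16, -3.35 and -2.91 in wild type. Neither pair of groups overlapped. Over the 30693 probes that could be tested, 4.44% passed, 1.69% upward and 2.76% downward, and 8.5% had groups that did not overlap, in either direction. Among the 20 clock gene probes 5 passed, all downward, and 4 had groups that did not overlap. Arntl probes 2 and 3 and Clock probe 3 met the filter on dim signal through wild type alone, where they were brighter. The filter thereby favoured a fall in them, so their calls and any lack of overlap are not counted as support. Per3 probe 3 and the tested Cry1 probe also met the filter through wild type alone, and their differences, 0.78 and 0.18, lay above 0. Adjusted over all probes, the differences were -1.50 ± 0.29 for Arntl probe 2 (SE, limma adjusted p = 0.025) and -1.82 ± 0.27 for Arntl probe 3 (adjusted p = 0.0105). Over all spots that are not controls, 45.8% to 58.3% passed the software's background test on knockout arrays and 55.7% to 60.4% on wild-type arrays. Arntl probes 2 and 3 passed it on 1 of 5 knockout and 5 of 5 wild-type arrays. Set against the dimmest signal that the software called above background, the falls are therefore given as at least 1.52-fold for probe 2 and at least 1.58-fold for probe 3. With normexp background correction, the differences of these dim probes were -0.20 and -0.18 (adjusted p = 0.311 and 0.359), while probe 1 kept -0.99 ± 0.15 (adjusted p = 0.00333).

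Clock encodes the DNA-binding partner of BMAL1. Its brightest probe, at chr5:76639992-76640051 on the reverse strand of mm9, read 0.29, 0.00, 0.12, 0.04 and 0.26 in knockout replicates 1 to 5, and 0.75, 0.59, 0.81, 0.58 and 0.71 in wild-type replicates 1 to 5. Every knockout sample lay below every wild-type sample, in a range narrower than that of Arntl. Clock averaged 0.14 ± 0.13 in knockout hearts and 0.69 ± 0.10 in wild-type hearts (SD, n = 5 each). Clock fell, with a difference of -0.55 ± 0.09 (SE, 95% interval of the difference -0.74 to -0.35, limma adjusted p = 0.0135), 1.46-fold lower in knockout. Across all genes, 4.44% had all knockout values below all wild-type values, 4.54% had them all above, and 8.98% had either. Of the 9 clock genes, Arntl and Clock had them all below and none had them all above.

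The remaining Clock probes lay lower in knockout by unequal amounts. Probe 2 read 0.22, -0.20, -0.05, 0.06 and -0.16 in knockout, against 0.52, 0.35, 0.15, 0.35 and 0.30 in wild type, with knockout replicate 1 above wild-type replicate 3. Its difference of -0.36 ± 0.10 (SE) missed the threshold over probes (limma adjusted p = 0.0727). Probe 3, which passed the background test on 3 of 5 knockout and 5 of 5 wild-type arrays, read -3.97, -3.85, -4.31, -3.47 and -3.93 in knockout, against -3.06, -2.94, -3.54, -2.92 and -3.04 in wild type. Knockout replicate 4 and wild-type replicate 3 made its groups overlap slightly. Probe 3 fell, with a difference of -0.81 ± 0.16 (SE, adjusted p = 0.0269 over probes), given as at least 1.44-fold lower. With normexp correction probe 2 passed at -0.33 (adjusted p = 0.0367) and probe 3 stood at -0.05 (adjusted p = 0.741). The last Clock probe was not well above background on any of the 10 arrays.

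Npas2, the relative that can stand in for CLOCK, could not be tested. Its only probe was not well above background on any array, and its values of -7.18 to -5.28 in knockout and -6.12 to -5.60 in wild type give only an upper limit on its signal.

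The arrays lay on 2 slides: slide 1 had wild-type replicates 1 and 2 and no knockout array, and the other 8 arrays were on slide 2. Within slide 2, Arntl still fell by 1.46 on the log2 scale (limma adjusted p = 0.0166) and Clock by 0.56 (adjusted p = 0.0377). Of their dimmer probes, Arntl probe 3 kept its call there (-1.96, adjusted p = 0.0317 over probes), while Arntl probe 2 (-1.59, adjusted p = 0.0654) and Clock probe 3 (-0.74, adjusted p = 0.0977) lost theirs. As these dimmer probes met the filter through wild type alone, the kept call is not counted as support. Within slide 2 the repressors did not pass. Per1 stood at 0.66 (limma adjusted p = 0.0993), Per2 at 0.41 (adjusted p = 0.129) and Nr1d2 at 0.35 (adjusted p = 0.21), each over 1.5 times its difference on all arrays. Cry1 stood at 0.24 and Cry2 at 0.20. Per3 lay closer to wild type than on all arrays, at 0.30 against 0.39. Nr1d1 lay further below it, at -0.25 against -0.17. When both slide and row of the array on the slide were terms of the fit, the differences were -1.51 for Arntl and -0.41 for Clock, and neither passed. On slide 2, row 1 held a single knockout array and row 2 no wild-type array. The genotype difference in that fit is therefore knockout replicate 1 against wild-type replicates 3 to 5. With a single knockout array it cannot decide whether a gene changed.

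**Figure D2:**
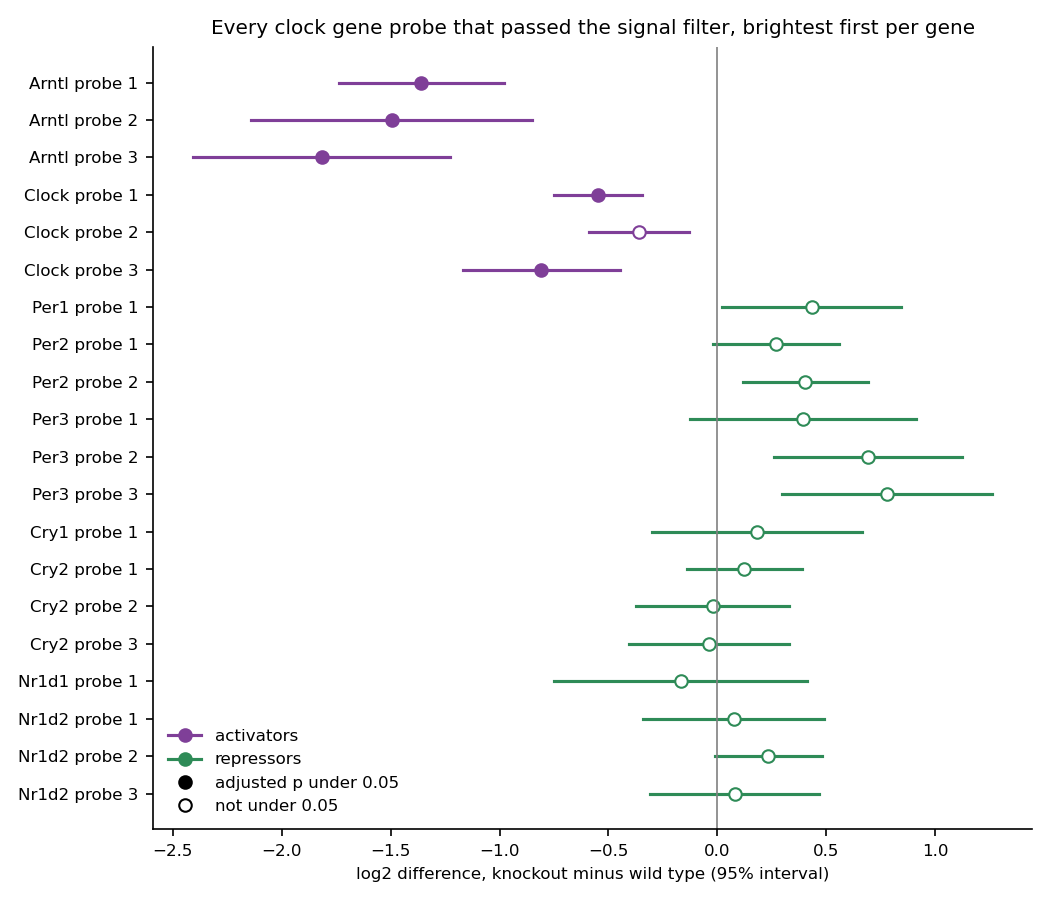
Log2 difference, knockout minus wild type (horizontal axis), with its 95% interval, for the 20 clock gene probes that passed the filter, the brightest first within each gene. All 6 activator probes lie below 0 and 5 of them passed (filled), while 11 of the 14 repressor probes lie above 0 and none passed (open). Arntl probes 2 and 3, Clock probe 3, Per3 probe 3 and the Cry1 probe met the filter through wild type alone, which favours a fall in them.

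The period genes, whose proteins carry the negative arm of the loop with the cryptochromes, lay above wild type in the mean without passing the test. Per1 had 4.07, 4.16, 3.59, 4.30 and 4.23 in knockout replicates 1 to 5, and 4.00, 3.94, 3.27, 3.73 and 3.25 in wild-type replicates 1 to 5. Knockout replicate 3 lay within the wild-type range, and the other 4 knockout samples lay above all wild-type samples. Its difference was 0.43 ± 0.19 (SE, 95% interval 0.02 to 0.84, limma adjusted p = 0.165). Per1 was the only 1 of 7 repressors at an unadjusted p under 0.05, where 27.2% of all genes stood. A second Per1 probe was not well above background on any array.

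Per2, the period gene whose loss shortens and then abolishes rhythms in mice, had 0.84, 1.02, 0.52, 1.04 and 0.92 in knockout, against 0.68, 0.94, 0.47, 0.49 and 0.42 in wild type. Knockout replicate 3 was again the lowest of its genotype, and wild-type replicate 2 the highest of its own. The difference was 0.27 ± 0.13 (SE, 95% interval -0.02 to 0.56, limma adjusted p = 0.211). The dimmer Per2 probe read -2.51, -2.19, -1.99, -2.07 and -2.47 in knockout, against -2.65, -2.33, -2.77, -2.76 and -2.73 in wild type, a difference of 0.40 ± 0.13 (adjusted p = 0.0934 over probes).

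Per3, which acts more on the output and sleep side of the clock than on its core rhythm, was the most variable of the 3 among wild-type samples. Its brightest probe read -0.41, 0.07, -0.03, -0.72 and 0.06 in knockout, and -0.73, -0.75, -0.07, -1.26 and -0.19 in wild type. The groups overlapped widely, with a difference of 0.39 ± 0.24 (SE, 95% interval -0.13 to 0.91, limma adjusted p = 0.302). Probe 2 of Per3 read -0.64, -0.17, -1.08, -0.31 and -0.32 in knockout, and -1.11, -0.83, -0.99, -1.49 and -1.56 in wild type, where only knockout replicate 3 lay inside the wild-type range. It differed by 0.69 ± 0.20 (95% interval 0.26 to 1.12, adjusted p = 0.0679 over probes). Probe 3, which passed the background test on 3 of 5 knockout and 4 of 5 wild-type arrays, differed by 0.78 ± 0.22 (adjusted p = 0.067).

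All 6 probes of the period genes thus lay above 0, by 0.27 to 0.78, and 0 passed in limma after adjustment over probes, with 4 of 6 at an unadjusted p under 0.05. At that cut stood 26.1% of all probes. With normexp background correction, under which 11.2% of all probes rose and 3.56% fell, 3 of the 6 rose: Per2 probe 2 by 0.39 (adjusted p = 0.0336), Per3 probe 2 by 0.60 (adjusted p = 0.0228) and Per3 probe 3 by 0.51 (adjusted p = 0.0211). With that correction 71.8% of all called genes rose, against 39.8% with the software's own background subtraction.

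The cryptochromes, which block the activator pair most directly, did not pass. Cry1 was dim and passed the background test on 3 of 5 knockout and 5 of 5 wild-type arrays. It read -4.24, -4.35, -3.70, -3.29 and -3.86 in knockout, and -4.43, -3.53, -4.06, -4.10 and -4.25 in wild type, with the groups spread over the same range. The difference was 0.18 ± 0.22 (SE, 95% interval -0.30 to 0.66, limma adjusted p = 0.62). Cry2 read 3.26, 2.87, 2.67, 3.11 and 3.02 in knockout, and 3.02, 2.94, 2.91, 2.71 and 2.73 in wild type. Its difference was 0.12 ± 0.12 (95% interval -0.14 to 0.39, adjusted p = 0.524), and its dimmer probes differed by -0.02 ± 0.16 and -0.04 ± 0.17. The interval of Cry1 reaches a rise larger than the fall of Clock, and that of Cry2 reaches a change of that size in neither direction.

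The REV-ERB genes, which repress Arntl, did not pass either. Nr1d1, which encodes REV-ERBα, read 1.21, 1.24, 1.34, 0.42 and 1.95 in knockout, against 1.55, 0.99, 1.76, 0.99 and 1.72 in wild type. Knockout replicates 4 and 5 were the lowest and the highest of all 10 samples. The difference was -0.17 ± 0.26 (SE, 95% interval -0.75 to 0.41, limma adjusted p = 0.711), and without knockout replicate 4 it was 0.03. Nr1d2, which encodes REV-ERBβ, read 2.52, 2.24, 1.93, 2.43 and 2.45 in knockout, and 2.75, 2.57, 2.09, 1.88 and 1.91 in wild type. Its difference was 0.07 ± 0.19 (95% interval -0.34 to 0.49, adjusted p = 0.829), and leaving out wild-type replicate 4 or 5 gave -0.02 or -0.01. The dimmer probes of Nr1d2 differed by 0.23 ± 0.11 (adjusted p = 0.21 over probes) and 0.08 ± 0.18 (adjusted p = 0.808).

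Set side by side, both activators that could be tested fell, and of 7 repressors none passed, with 6 above 0 and Nr1d1 below it. Over all genes 11157 of 20607 lay above 0. The median difference of the repressors was 0.18, with 0.39 for the period genes, 0.15 for the cryptochromes and -0.05 for the REV-ERB genes, against 0.03 over all genes. For each array, every gene was centred on its mean over the 10 arrays, and the mean of the 7 repressors was subtracted from the mean of Arntl and Clock. This value was -0.50, -0.73, -0.22, -0.50 and -0.90 in knockout replicates 1 to 5, and 0.56, 0.15, 0.56, 0.81 and 0.77 in wild-type replicates 1 to 5. The groups did not overlap, and its mean was -0.57 ± 0.26 in knockout hearts and 0.57 ± 0.26 in wild-type hearts (SD, n = 5 each). Most of the difference of -1.14 came from the activators, whose own means differed by -0.95. Those means could not overlap, since Arntl and Clock each had all knockout values below all wild-type values. The repressor means were 0.09 ± 0.13 in knockout and -0.09 ± 0.15 in wild type, which overlapped and differed by 0.19.

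**Figure D3:**
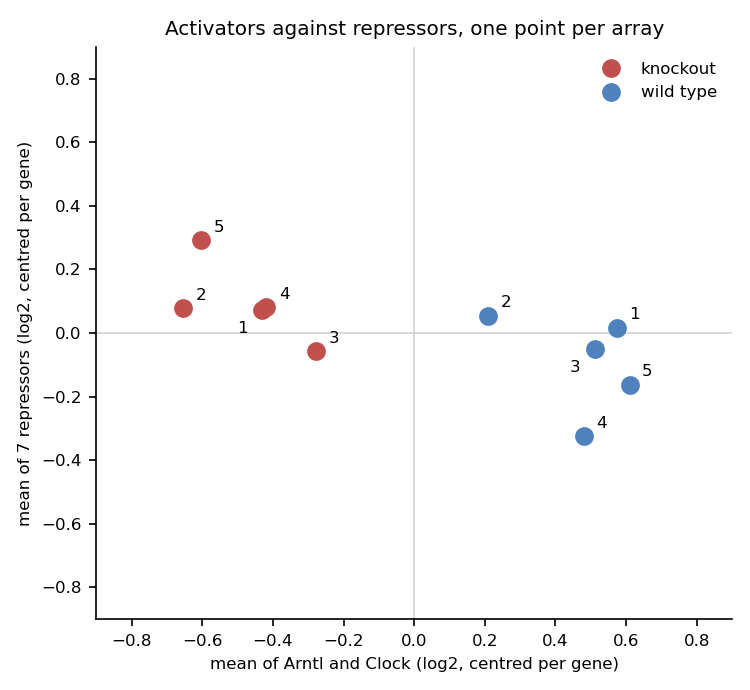
Mean of the 7 repressors (vertical axis) against the mean of Arntl and Clock (horizontal axis) for each array, in log2 units with each gene centred on its mean over the 10 arrays; numbers are replicates. Knockout arrays lie between -0.65 and -0.28 on the activator axis and wild-type arrays between 0.21 and 0.61, while on the repressor axis the genotypes overlap.

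Within a genotype the samples differed by gene in several patterns, given here on the brightest probe of each gene unless stated. After subtraction of the genotype mean, knockout replicate 3 was the highest of its genotype for Arntl (0.42) and the lowest for Per1 (-0.48), Per2 (-0.34), Cry2 (-0.32) and Nr1d2 (-0.38). Wild-type replicate 2 was the lowest of its genotype for Arntl (-0.44) and the highest for Per2 (0.34) and Cry1 (0.54). In both samples the brightest probes of Arntl and Per2 stood on opposite sides of their genotype means, but on the dimmer Per2 probe knockout replicate 3 was the highest of its genotype (-1.99), on the same side as Arntl. The dimmer Cry2 probes were lowest in knockout replicate 4 (-1.65 and -2.12), with replicate 3 at -1.34 and -1.48. The dimmer Nr1d2 probes kept knockout replicate 3 lowest. On its brightest probe Per3 shared another order with Nr1d1. Both were lowest in knockout replicate 4, at -0.51 for Per3 and -0.81 for Nr1d1, and in wild type Per3 was lowest in replicate 4 (-0.66) and highest in replicate 3 (0.53), where Nr1d1 stood at -0.41 and 0.36. Per3 probe 2 did not share it: knockout replicate 3 read lowest (-1.08), with replicate 4 at -0.31, and wild-type replicate 5 lowest (-1.56). On the dim Per3 probe 3, knockout replicate 1 read lowest (-4.06), while wild type was again lowest in replicate 4 (-4.94) and highest in replicate 3 (-3.88). Clock hardly varied within a genotype, between -0.14 and 0.15. All genes of a sample share its array and its scaling, and the collection time of each sample was not analysed here.

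**Figure D4:**
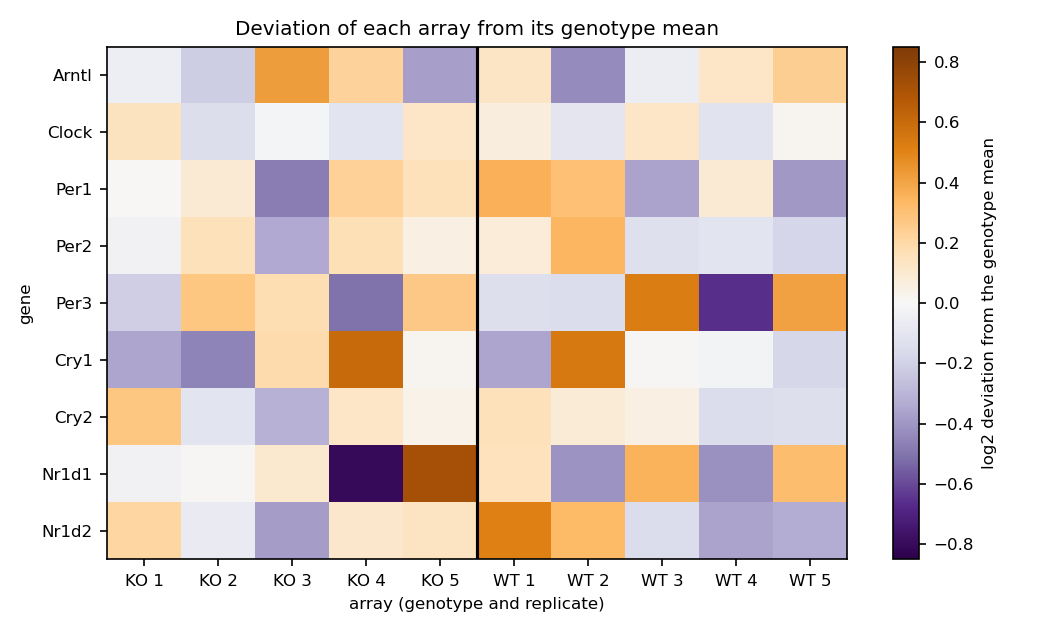
Deviation of each array (columns, knockout replicates 1 to 5 and then wild-type replicates 1 to 5) from the mean of its genotype, in log2 units, for the 9 clock genes (rows). Nr1d1 in knockout replicates 4 and 5 has the widest deviations, -0.81 and 0.72, and the Clock row stays between -0.14 and 0.15.

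Genes directly downstream of the loop were taken as a list of 11 output factors, all of which were tested. One rose, none fell and 10 did not pass, with a median difference of 0.17 and 8 of 11 above 0. Over all genes 4.94% passed, and 11157 of 20607 lay above 0. The gene that rose was Hlf, a PAR bZIP factor that binds D-boxes and is driven by the clock. Hlf read -0.39, -0.54, -1.04, -1.26 and -0.26 in knockout, and -1.62, -1.14, -1.34, -1.87 and -1.98 in wild type, with knockout replicate 4 below wild-type replicate 2. Hlf averaged -0.70 ± 0.43 in knockout hearts and -1.59 ± 0.35 in wild-type hearts (SD, n = 5 each), a rise of 0.89 ± 0.22 (SE, limma adjusted p = 0.0478). Within slide 2 Hlf missed the threshold (1.03, adjusted p = 0.0725), and so it did with a covariate for atrial signal (0.87, adjusted p = 0.143). It also missed it in 8 of 10 fits that leave out an array, and the highest adjusted p, 0.103, came without replicate 4 of wild type.

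Further output factors are given as values, chosen after their values were seen. Dbp, a PAR bZIP factor with strong daily rhythms, averaged 5.60 ± 0.23 in knockout hearts and 4.90 ± 0.41 in wild-type hearts (SD, n = 5 each), a difference of 0.71 ± 0.19 (SE, limma adjusted p = 0.0589). Wee1, a kinase that delays entry into mitosis, differed by 0.63 ± 0.18 (adjusted p = 0.0645), and within slide 2 it passed, at 0.85 (adjusted p = 0.0415). Another PAR bZIP factor, Tef, differed by 0.34 ± 0.13 (adjusted p = 0.12). Nfil3, which competes with these factors at D-boxes, had a difference of -0.36 ± 0.20 (adjusted p = 0.257), also chosen after its value was seen.

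A second list held 12 regulators of the loop, such as casein kinases and F-box proteins, of which 10 were tested, while Rorb and Fbxl21 had no probe that passed the filter. One fell, none rose and 9 did not pass, with a median difference of -0.09, where 4.94% of all genes passed. The gene that fell was Timeless, which in mammals acts mainly at replication forks and has been tied to the clock. It read 1.05, 1.10, 1.29, 1.20 and 1.15 in knockout, and 1.34, 1.76, 1.98, 1.78 and 1.63 in wild type, without overlap. Timeless fell, with a difference of -0.54 ± 0.12 (SE, limma adjusted p = 0.0305). Its call held within slide 2 (-0.64, adjusted p = 0.0282) and was lost when atrial signal was a covariate (-0.42, adjusted p = 0.127). With the mean of all kept probes of the gene, Timeless stood at -0.29 and missed the threshold (adjusted p = 0.156). It was also lost in 6 of 10 fits that leave out an array, and the highest adjusted p, 0.0736, came without replicate 4 of wild type.

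**Figure D5:**
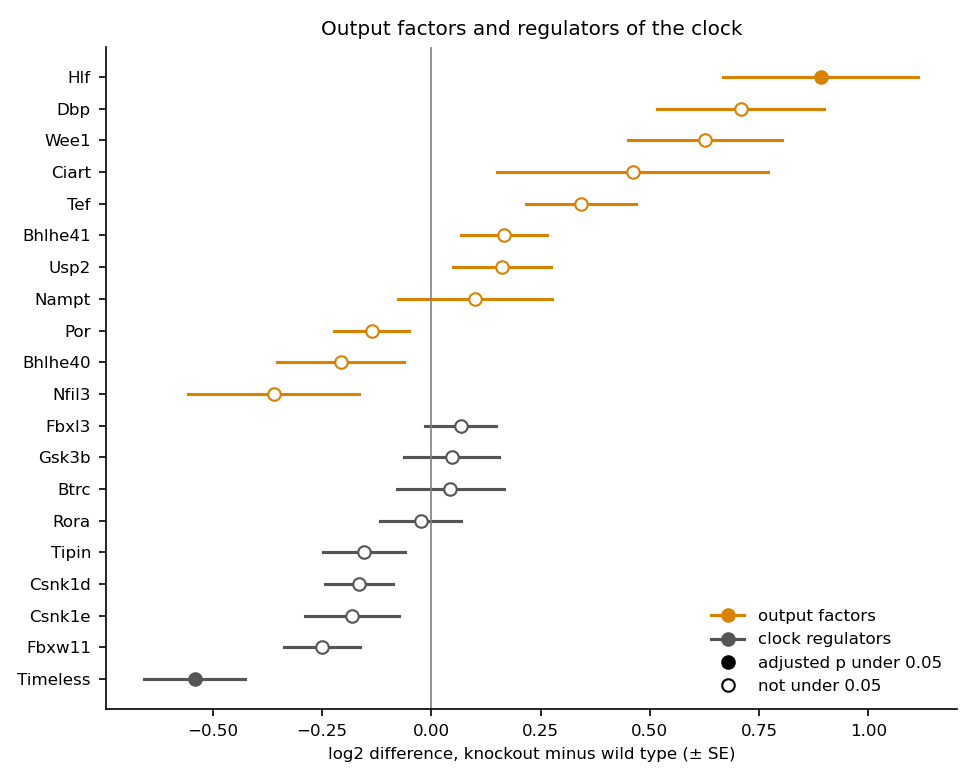
Log2 difference, knockout minus wild type (horizontal axis), with its SE, for the 11 clock output factors and 9 of the 10 clock regulators that were tested, sorted within each list. Hlf, at 0.89, and Timeless, at -0.54, are the genes that passed (filled).

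The genes most like the activator-minus-repressor value across the 10 arrays, after removal of both genotype means, were Gins3 (Pearson r = 0.952), Cd151 (r = 0.949) and Galnt1 (r = 0.937) on the same side, and Gltp (r = -0.971), Kazald1 (r = -0.959) and Magee1 (r = -0.953) on the opposite side. They are the extremes among 20588 genes compared over 10 arrays, so their r is a description. None of the 6 passed between genotypes, with limma adjusted p from 0.0831 for Gins3 to 0.953 for Magee1.

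Other properties of the arrays moved with genotype. The 75th percentile of signal was 285.8 to 460.5 on knockout and 462.1 to 542.3 on wild-type arrays, without overlap. The summed signal of 6 cardiomyocyte markers was 2375 to 3649 times that percentile in knockout and 1581 to 2450 in wild type, and that of 9 macrophage markers was 74.4 to 92.5 in knockout and 92.6 to 114.9 in wild type. The 3 atrial markers summed to 1.71 to 12.4 in knockout and 1.30 to 101.6 in wild type, and the 4 fat markers to 0.13 to 0.772 in knockout and 0.284 to 6.82 in wild type. Of 5 skeletal muscle markers, 4 were tested, with sums of 23.1 to 129.6 in knockout and 26.5 to 156.8 in wild type. None of the marker genes tested passed between genotypes by itself, and all 9 macrophage markers lay below 0. As a mean log2 signal over the list, the cardiomyocyte markers stood at 8.27 ± 0.16 in knockout hearts and 7.85 ± 0.19 in wild-type hearts, and the macrophage markers at 1.68 ± 0.25 in knockout hearts and 2.04 ± 0.10 in wild-type hearts (SD, n = 5 each). Each of these list means differed with a two-sided exact permutation p = 0.0159, or 0.037 after Benjamini-Hochberg adjustment over 7 array measures. With the mean log2 atrial signal as a covariate, the Arntl difference was -1.41 (limma adjusted p = 0.0356) and the Clock difference -0.57 (adjusted p = 0.0622). With atrial and fat signal together, they were -1.50 (adjusted p = 0.0926) and -0.59 (adjusted p = 0.156). The part of the macrophage and cardiomyocyte signal in the clock differences was not tested. The Hipk2 probe that represents the gene read 1.58 ± 0.25 in knockout hearts and 1.54 ± 0.31 in wild-type hearts (SD, n = 5 each), so the genotypes rest on the labels.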

How the data were processed

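Total RNA from cardiac tissue was profiled on 10 1-colour arrays, 5 per genotype, with groups taken from the sample titles. In the deposited array files, spot intensity is linear and was background-subtracted by Agilent Feature Extraction 10.7.1.1, per the file headers and the submitters' processing notes; flags for spots well above background stand beside it. The authors also deposited a log2 value table, which was used as an alternative. Each of its columns matched its own array (r of 0.958 to 0.998 across probes, at most 0.57 for another array), and all share a median of 4.74; how it was filtered and centred is not given in the sources used here.

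Processed intensity was taken to log2, from which the array's own 75th percentile, also in log2, was subtracted. Control spots and outlier flags were left out, and spots of a probe were averaged. Probes well above background on at least 4 of 5 arrays of a genotype were kept, 30693 in all. Genes were named through array accessions (32994 of 56605 probes matched RefSeq; the others kept the file's name) and represented by the brightest kept probe, giving 20607 genes. Differences were fitted with limma 3.58.1 in R 4.3.3 (lmFit, eBayes), tested on simulated data beforehand. A fold for a dim probe is a lower bound, taken against the lowest signal called above background. The number of arrays limits the precision, and no spot was saturated.

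The clock genes and lists were chosen with earlier results of these data known. Clock genes were all named; of the other lists, up to 4 genes past the threshold were named, and any further name is marked. Alternatives were normexp correction with an offset of 50, quantile normalization, the deposited table, filters, mean over probes, slide, row, replicate number, tissue scores and leaving out each array. One regulator is counted in its list and is not reported by name here.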

Additional observations from a re-analysis of the deposited data

Results flagged for a closer look

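In 46 groups of 5 samples, the values in each genotype of every kept probe, of the activator and repressor means and of the difference between these means, the gap between an extreme sample and its nearest neighbour was compared with the range of the group, and a sample was singled out where the gap passed 0.71 of the range. Chance does this in about 1 in 20 groups, and it happened in 5 of 46. Knockout replicate 4 stood apart low in Cry2 probe 2, at -1.65, and knockout replicate 3 stood apart low in Nr1d2 probe 3, at 0.78. In wild type, replicate 4 was low in Cry2 probe 2, at -1.94, replicate 3 was low in Clock probe 3, at -3.54, and replicate 2 was high in Per2 probe 2, at -2.33. None of the brightest probes of a clock gene was among them.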

How the results depend on the processing

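Arntl kept its direction in all 12 alternatives (-1.56 to -0.99) and its call in 10, and Clock kept its direction in all 12 (-0.59 to -0.41) and its call in 7. The 12 are not separate checks of direction. The filter settings and the replicate block left the estimates at their main values (-1.36 for Arntl and -0.55 for Clock). Slide as a block and slide 2 only shared the same estimates (-1.46 and -0.56). Quantile normalization and the deposited table gave nearly the same ones (-1.36 and -0.55). Arntl missed the threshold with slide and row as terms (-1.51), a difference that rests on a single knockout array. It also missed it with atrial and fat scores (-1.50, limma adjusted p = 0.0926). Clock missed it with no filter on dim probes (-0.55, 0.0546), replicate number as a block (-0.55, 0.0504) and slide and row (-0.41). Clock also missed it with the atrial score (-0.57, 0.0622) and atrial and fat scores (-0.59, 0.156). With an array left out, both kept their calls in 10 of 10 fits (Arntl -1.47 to -1.27, adjusted p up to 0.0215; Clock -0.58 to -0.51, up to 0.0433). The 7 repressors, each by its brightest probe or the mean of its probes, passed in none of the alternatives. Cry1 turned to -0.11 with slide and row, on that single knockout array, and Nr1d2 to -0.07 (-0.0709) with the atrial score (limma adjusted p = 0.879). Over the alternatives the differences ran from 0.35 to 0.66 for Per1, 0.22 to 0.41 for Per2, 0.09 to 0.62 for Per3, -0.11 to 0.57 for Cry1, 0.02 to 0.48 for Cry2, -0.31 to -0.16 for Nr1d1 and -0.07 to 0.56 for Nr1d2. The ends 0.09 for Per3, -0.11 for Cry1, 0.48 for Cry2 and 0.56 for Nr1d2 came from the fit with slide and row. With arrays left out, the difference of Nr1d1 ranged from -0.349 to 0.0343 and that of Nr1d2 from -0.0161 to 0.203. The activator-minus-repressor difference, computed under 5 of the alternatives (normexp, quantile normalization, the deposited table, the mean of probes and slide 2), was -1.29 to -0.93, and -1.24 to -1.06 with an array left out. The cause of these shifts was not tested.

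Genes changed over the whole table numbered 1017 (405 up, 612 down). The count was 3111 with normexp correction (2233 up, 878 down), 173 with no filter (92 up, 81 down), 774 with slide as a block (246 up, 528 down), 458 within slide 2 (140 up, 318 down), 0 with slide and row (0 up, 0 down; 2788 at an unadjusted p under 0.05), 57 with the atrial score (26 up, 31 down) and 8 with atrial and fat scores (3 up, 5 down). With an array left out it was 282 to 940 (107 to 389 up, 167 to 593 down), with 434, 368 and 469 without knockout replicates 1, 2 and 4, and 381, 304 and 282 without wild-type replicates 2, 4 and 5. Output factors called, 1 in the main result, numbered 4 with normexp, 3 with the filter on all 10 arrays, 2 with the mean of probes, 0 with no filter, slide and row, the atrial score or both scores, and 0 to 2 with an array left out. Regulators called, 1 in the main result, numbered 2 with normexp, 0 with no filter, the mean of probes, slide and row, the atrial score or both scores, and 0 to 1 with an array left out. Cry1 has no value under the filter on all 10 arrays.

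Replicate numbers did not pair the samples: deviations of same-numbered samples correlated at r of -0.11 to 0.05, and 0 of 5 knockout arrays correlated best with their own number. With the replicate block, 164 genes changed (46 up, 118 down), with 0 output factors and 0 regulators. Arntl kept its call (-1.36, adjusted p = 0.0419) and Clock did not (-0.55, adjusted p = 0.0504). Dim signal limits Npas2, which could not be tested, Cry1, and the dimmer Arntl and Clock probes, whose folds are given as lower bounds.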
